A study of Mus musculus with 96 samples.

Results

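Fatty acid-binding proteins were followed across 7 organs of 2 month-old mice as the genes Fabp1 to Fabp7, taken by symbol from the deposited gene table. All 7 symbols were found, each in 1 row of the 56941 gene rows. The series covers 96 bulk RNA-seq libraries of total RNA: 15 each of small intestine, liver, skeletal muscle, kidney and brain, 14 of heart and 7 of spleen. The mice were wild-type controls (WT) or belonged to 4 reprogrammable strains, 4Fj, 4FsB, 4Fk and 4FsA, and spleen was taken from WT, 4Fj and 4FsA mice only. The sources used here do not say what construct each strain carries, what drives it or whether it was induced. The columns of the gene table name the organ and a running number but no genotype, so every organ group below mixes genotypes, no strain was compared with another, and a library is called by its number in that table. They also do not say whether organs came from the same mice or libraries from separate mice, so the p-values treat libraries as independent and measure the spread between these libraries.

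Fatty acid-binding proteins are small cytoplasmic proteins that carry long-chain fatty acids and other hydrophobic ligands between membranes, enzymes and nuclear receptors. They share a barrel fold with a flap-like lid, and each member is best known from the tissue after which it was named. Fabp1 is the liver form, Fabp2 the intestinal form, Fabp3 the heart and muscle form, Fabp4 the form of adipocytes and capillary endothelium, Fabp5 the epidermal form, Fabp6 the ileal bile acid-binding form and Fabp7 the brain form of glia and neural progenitors.

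The 7 genes code for proteins of similar size, between 127 residues for Fabp1 and 135 for Fabp5, from coding sequences of 384 to 408 bases including the stop codon. Over the 21 pairs of members, 54.3 to 66.7% of aligned coding bases were identical, and 54 positions of the joint alignment held the same base in all 7. The first 75 coding bases of each member are shown because they cover the start of the protein where the family resemblance and the differences in length can be read together. Sequences run 5′ to 3′ from the start codon in the GENCODE M21 transcripts (build GRCm38), and capitals mark bases shared by all 7 members in the joint alignment.
Fabp1: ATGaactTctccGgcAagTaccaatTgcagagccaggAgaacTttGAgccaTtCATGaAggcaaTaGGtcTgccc
Fabp2: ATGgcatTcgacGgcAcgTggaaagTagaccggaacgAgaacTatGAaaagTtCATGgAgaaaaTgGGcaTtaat
Fabp3: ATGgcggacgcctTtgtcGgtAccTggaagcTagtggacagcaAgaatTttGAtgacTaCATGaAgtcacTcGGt
Fabp4: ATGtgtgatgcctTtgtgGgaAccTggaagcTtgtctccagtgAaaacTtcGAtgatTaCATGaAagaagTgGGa
Fabp5: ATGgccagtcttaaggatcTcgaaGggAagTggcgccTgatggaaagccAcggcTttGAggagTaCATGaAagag
Fabp6: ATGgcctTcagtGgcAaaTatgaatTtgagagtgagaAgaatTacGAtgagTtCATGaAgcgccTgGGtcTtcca
Fabp7: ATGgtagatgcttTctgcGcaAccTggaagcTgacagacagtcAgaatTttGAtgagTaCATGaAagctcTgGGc
The most alike of the 21 pairs were Fabp3 and Fabp7 (66.7% identical bases), Fabp3 and Fabp4 (66.5%) and Fabp4 and Fabp5 (66.4%). These values are far below those of the near-identical copies elsewhere in the genome. The pseudogene Fabp3-ps1 matched 399 of 402 aligned bases of the Fabp3 coding sequence (99.3%), and Fabp5l2 matched 94.1% of the Fabp5 coding sequence, so the authors' counting could divide reads between these genes and their copies. Fabp3-ps1 had a median of 25.9 CPM (defined below) in heart, where Fabp3 itself had 2242.

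The promoters of Fabp1, Fabp2 and Fabp6 are shown because these members share the intestinal epithelium as a known site of expression. RefSeq windows (build GRCm38.p6) were given for 5 of the 7 members, and the last 120 bases before each listed start are printed, with capitals marking matches to any of the motifs searched.
Fabp1 (chr6:71199759-71199878, + strand): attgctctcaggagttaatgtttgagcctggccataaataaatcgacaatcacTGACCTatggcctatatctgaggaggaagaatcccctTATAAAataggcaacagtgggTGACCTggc
Fabp2 (chr3:122894952-122895071, + strand): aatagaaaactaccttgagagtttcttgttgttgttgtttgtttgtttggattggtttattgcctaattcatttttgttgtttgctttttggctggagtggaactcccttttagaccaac
Fabp6 (chr11:43601563-43601682, - strand): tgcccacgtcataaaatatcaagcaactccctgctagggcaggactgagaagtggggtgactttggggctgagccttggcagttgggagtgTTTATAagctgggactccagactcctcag
The motifs were searched on both strands in the 250 bases before the start. They were TATAAA, the core promoter element, AGGTCA, the half-site of many nuclear receptors, and the GATA-factor forms TGATAA as well as AGATAA, and no motif contains another. Fabp1 held TATAAA at -30 to -25 and AGGTCA on the opposite strand at -67 to -62 and at -9 to -4, counted from the listed start. Fabp6 held TATAAA on the opposite strand at -29 to -24. The Fabp2 window held none of these letters, which says only that they were not in this window. Among all 32851 windows of the same length, 12.4% held TATAAA and 14% held AGGTCA.

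Levels are given as CPM, which is a gene's estimated count over its library's sum of counts, times 1000000. Library totals ran from 6624474 to 17882603 estimated counts, so a count of 3 in a library corresponded to 0.168 to 0.453 CPM. Levels of one gene in different organs were compared in CPM, and different genes were compared as CPM per kilobase of transcript. Tests used edgeR's quasi-likelihood test with TMM scaling (a correction for differences in library composition) on 20100 genes, with Benjamini-Hochberg adjustment over all genes and all 21 pairs of organs and a threshold of 0.05. TMM moves values between organs and the fit compares group means, so folds from the test can differ from ratios of CPM medians. Fabp1, for example, had means of 1430 CPM in liver and 290.7 in small intestine, against medians of 1195 and 36.92. For organs that are neighbours in a member's order, folds by library totals are added where they differ by more than 1.5 times or change the call. In these bulk samples, fewer cells of a type and less RNA per cell cannot be told apart.

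Organ labels matched their markers, less clearly in small intestine. The summed level of 6 hepatocyte markers in liver was 49410 to 119000 CPM, and that of 6 cardiomyocyte markers in heart was 24220 to 42620 CPM. The 8 enterocyte markers in small intestine ranged from 143 to 40740 CPM, with library 12 lowest. In libraries 6, 10, 11 and 12 their sum (800, 1050, 753 and 143 CPM) lay below every liver library (1348 to 6408 CPM). This list therefore did not separate small intestine from liver. Small intestine libraries 5 and 6 had 62.3% and 78.8% of their counts on mitochondrially encoded genes. Small intestine library 4 carried 27700 CPM of 6 pancreatic acinar markers, and the hepatocyte markers reached 4659 CPM in spleen library 2 and 2960 CPM in skeletal muscle library 12.

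Each member had its own order of organs, and in 3 organs a single member made up 88.0% or more of the family's summed medians per kilobase (plots of levels by organ and of family make-up). Of the 27 comparisons between organs that were neighbours in a member's order of median CPM, 20 passed the test and all 20 were higher in the organ with the higher median, a direction that is no independent evidence since the order was made from the same libraries. Among all genes tested, 50.5 to 74.1% passed in a comparison of 2 organs, so a passed comparison is common in these data, and the sizes below carry more than the count. In 4 of the 27 comparisons the lowest library of the higher organ lay above the highest library of the other. The share of all genes with such separate ranges was not computed, so separate ranges are given as description only.

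**Figure D1:**
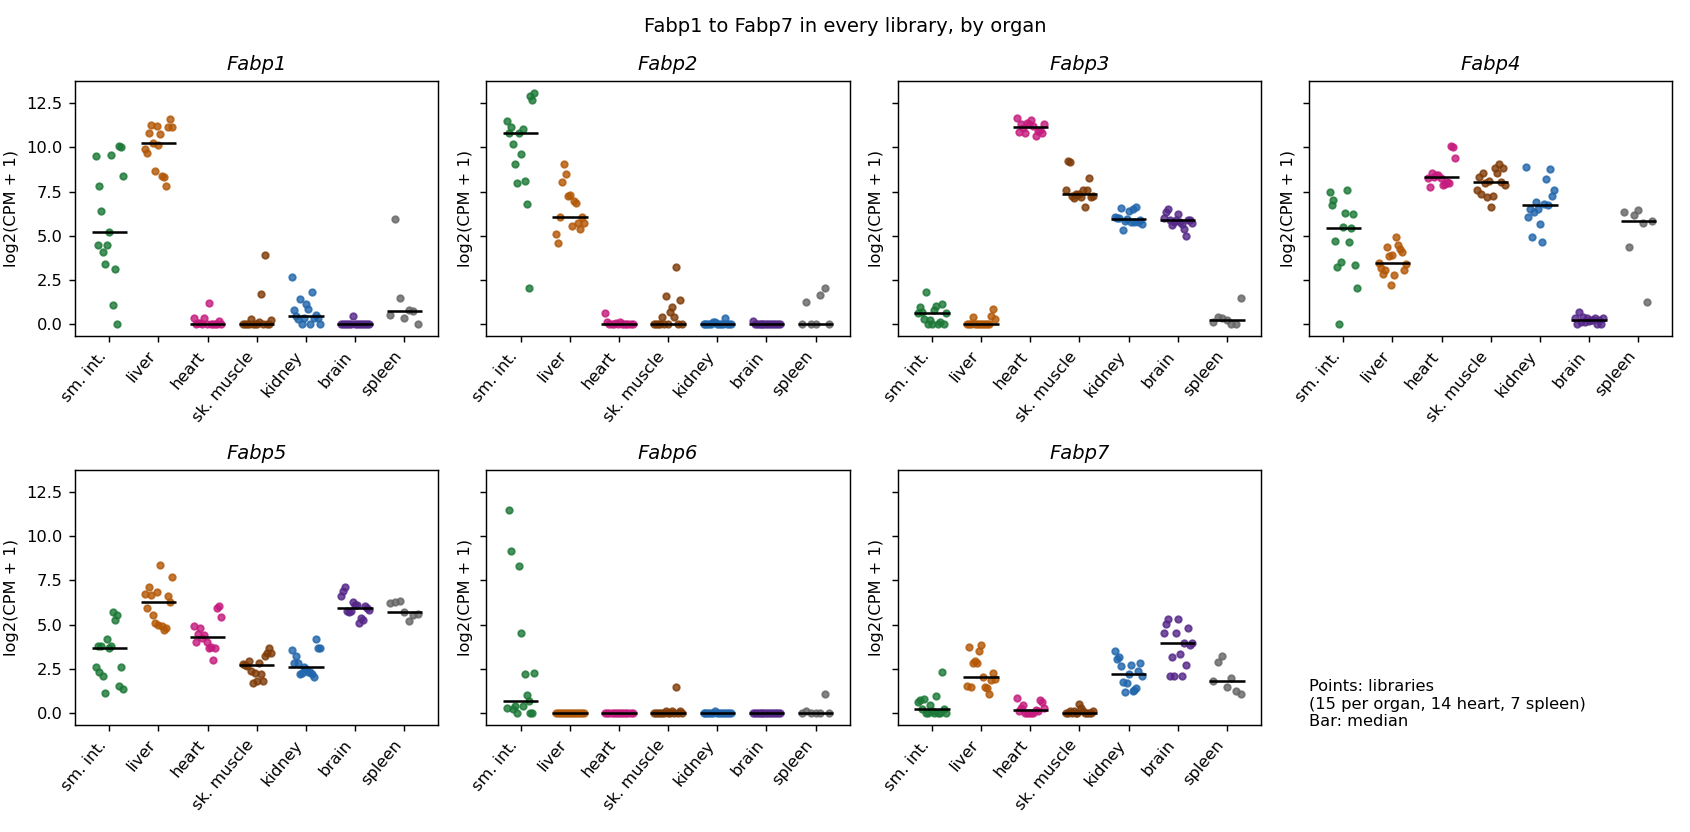
Level of each member as log2(CPM + 1) on the y axis for every library (points), by organ on the x axis, with the organ's median as a bar. Fabp3 in heart (1580 to 3205 CPM) and Fabp1 in liver (225 to 3103 CPM) stand highest for their genes, while Fabp6 is above 20 CPM in 4 small intestine libraries only.

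Per kilobase of transcript, Fabp2 supplied 93.5% of the summed medians of the 7 members in small intestine, Fabp1 93.1% in liver and Fabp3 88.0% in heart. Taken per library, the share of Fabp2 in small intestine was lower and wide, with a median of 71.7% (3.30 to 93.55%). The median share per library was 91.8% for Fabp1 in liver and 88.15% for Fabp3 in heart. Library by library, Fabp1 led the family in 15 of 15 liver libraries, Fabp3 in 14 of 14 heart libraries and Fabp2 in 13 of 15 small intestine libraries. The other organs were mixed. Skeletal muscle had 59.7% Fabp4 and 39.1% Fabp3, kidney 58.4% Fabp4 and 36.5% Fabp3, brain 46.9% Fabp3, 40.9% Fabp5 and 11.99% Fabp7, and spleen 52.3% Fabp4 and 43.8% Fabp5. The family as a whole, summed per library, had medians of 3440 CPM per kilobase in heart, 2799 in liver and 2591 in small intestine, against 546 in skeletal muscle, 210 in kidney, 151 in spleen and 146 in brain.

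**Figure D2:**
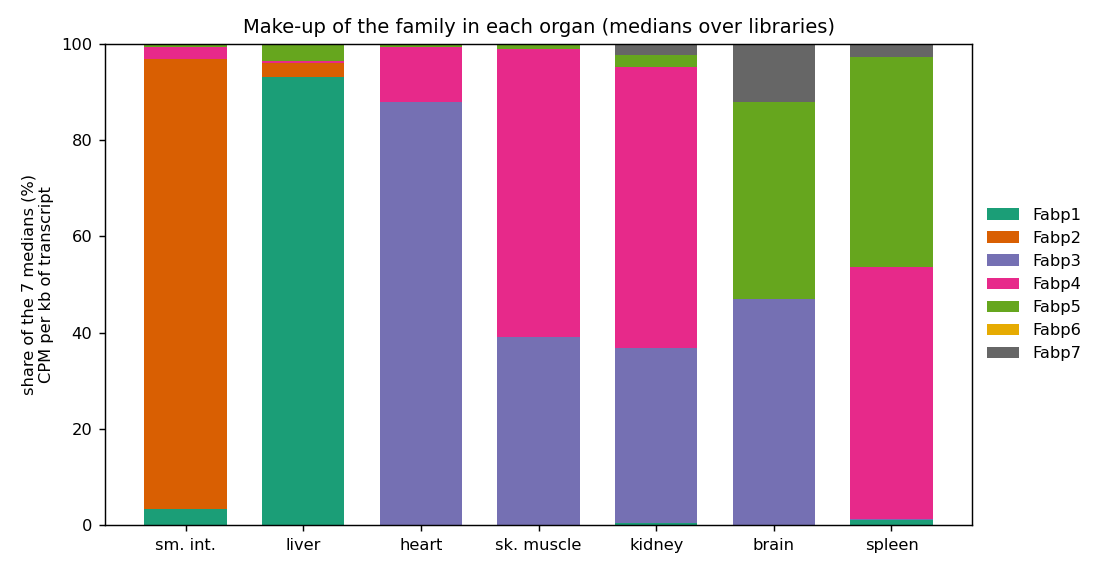
Stacked bars of each member's share (%) of the 7 median levels in CPM per kilobase of transcript, 1 bar per organ, with bars reaching 100. Small intestine, liver and heart are each filled mainly by 1 member (93.5% Fabp2, 93.1% Fabp1 and 88.0% Fabp3), and the other 4 organs by 2 or 3.

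Fabp1, which binds fatty acids and other ligands in hepatocytes and proximal enterocytes, was highest in liver. Liver libraries ranged from 225 to 3103 CPM with a median of 1195, and small intestine from 0 to 1064 CPM with a median of 36.9. The ranges overlapped, because the highest small intestine libraries exceeded the lowest liver libraries. The difference passed the test, 5.88-fold higher in liver (log2 2.56 ± 0.773 SE, edgeR adjusted p = 0.0028, n = 15 and 15), in a pair of organs where 60.0% of all genes passed. By limma on the authors' normalised values the difference was larger, at log2 4.53. In heart, skeletal muscle and brain the median was 0, and kidney had a median of 0.404 CPM (0 to 5.43).

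Spleen had a median of 0.688 CPM of Fabp1, with 61.01 CPM in library 2 and at most 1.84 in the other 6. Small intestine passed against spleen (log2 5.70, edgeR adjusted p = 5.66e-05; 55.4% of all genes passed), by 4.97 with library totals, and by 9.72 without the 3 libraries named next. Spleen passed the test against kidney at log2 3.01 (edgeR adjusted p = 0.0035; 58.9% of all genes passed), but without spleen library 2, small intestine library 4 and skeletal muscle library 12 the difference was -0.93 with adjusted p = 0.418. Spleen library 2 is the one with 4659 CPM of hepatocyte markers, against 5.30 to 47.4 CPM in the other spleen libraries. In skeletal muscle, library 12 had 14.2 CPM of Fabp1 and 8.60 of Fabp2 beside its 2960 CPM of hepatocyte markers. Enterocyte markers stood out too, at 121 CPM in skeletal muscle library 12 against at most 14.07 in the other skeletal muscle libraries and at 205 CPM in spleen library 2 against at most 64.3 in the other spleen libraries. Skeletal muscle library 12 also held 18 counts of Fabp6, of which no liver library had any. The part of those markers in these values was not tested.

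Within liver, Fabp1 varied widely. Libraries 10, 11 and 12 had 328, 327 and 225 CPM, library 6 had 408, and libraries 4, 7, 13, 14 and 15 had 2251 to 3103. The hepatocyte markers were 66530 to 76930 CPM in libraries 10 to 12 and 52690 to 105800 in those 5. These libraries were picked by their Fabp1, so only their overlap in markers is a measurement here. The spread of Fabp1 between the 10th and the 90th percentile was 2.91 on the log2 scale, wider than that of 90.3% of the 9392 genes with a median of 5 CPM or more in liver.

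Fabp2, which binds fatty acids in absorptive enterocytes, was highest in small intestine and was also present in every liver library. Small intestine libraries had a median of 1792 CPM, and liver libraries ranged from 23.5 to 542 with a median of 66.6. Library 12 (3.17 CPM) and library 11 (113) were the lowest in small intestine and overlapped the liver range. The difference passed the test, 17.4-fold higher in small intestine (log2 4.12 ± 0.652 SE, edgeR adjusted p = 3.91e-08), and was log2 3.16 by limma on the normalised values. Elsewhere Fabp2 had a median of 0, and every liver library exceeded every skeletal muscle library, the highest of which was 8.60 CPM (64.8% of all genes passed between these organs).

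Fabp2 and Fabp1 did not follow each other in liver. Fabp2 was highest in liver libraries 5 and 6, at 542 and 363 CPM, where Fabp1 was 1195 and 408. Over the 15 liver libraries Pearson's r of log2(CPM + 1) between them was -0.09 (-0.21 without libraries 12 and 11), while over the 15 small intestine libraries it was 0.86 (0.86 without libraries 12 and 11). The correlations describe libraries that mix genotypes and differ in cell make-up.

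**Figure D3:**
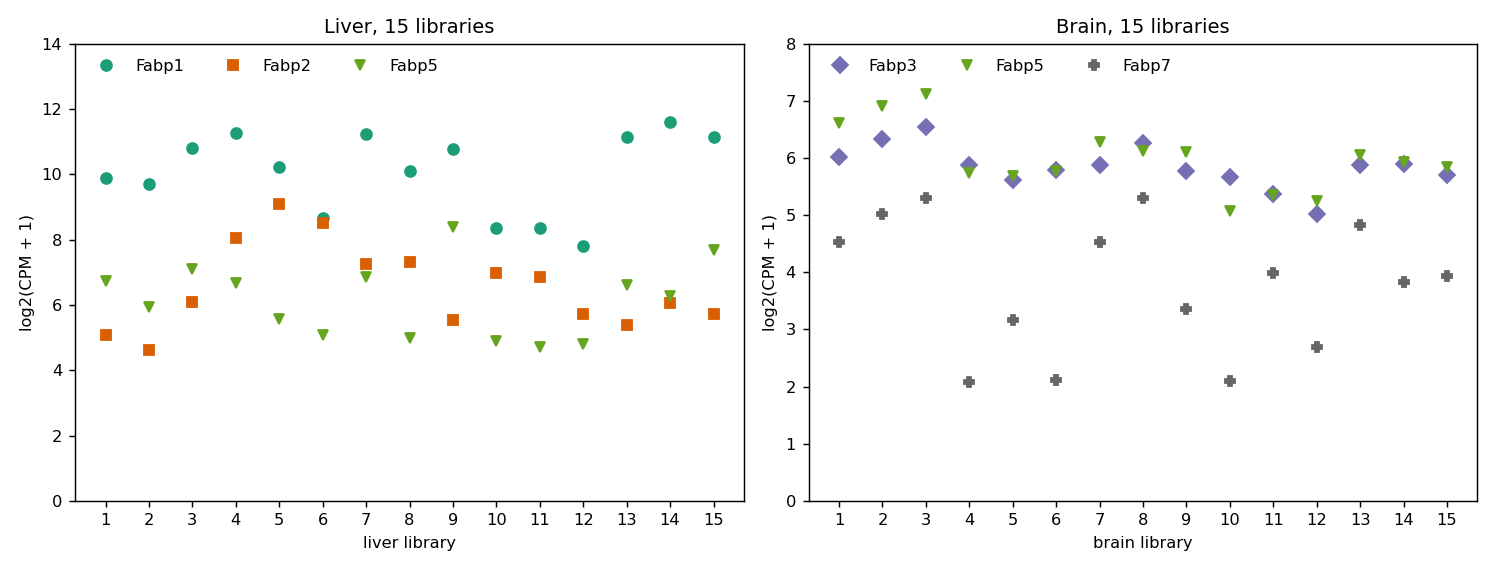
Levels as log2(CPM + 1) on the y axis for each of 15 liver libraries (Fabp1, Fabp2, Fabp5) and 15 brain libraries (Fabp3, Fabp5, Fabp7), with library numbers on the x axis. Fabp1 leads in liver, with libraries 10 to 12 lowest (225 to 328 CPM), and Fabp7 varies most in brain, from 3.22 to 38.6 CPM.

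In small intestine the 3 gut members split the libraries differently. Fabp1 was 744, 747, 1064 and 1041 CPM in libraries 1, 9, 13 and 14, where Lct, which encodes the proximal brush border enzyme lactase, was 1478, 245, 2330 and 2778 CPM. It was 21.4, 21.8 and 36.9 CPM in libraries 2, 7 and 8, where Lct was 0.607 to 1.68 CPM. Fabp2 stayed high across these libraries, at 1820, 1792 and 783 CPM in libraries 2, 7 and 8. The ratio of Fabp2 to Fabp1 counts was therefore 2.78 in library 9 and 82.4 in library 7. Only some of the 15 libraries are named here, and Lct is 1 of 6 proximal markers. Their sum was 1996, 1002, 3035 and 3358 CPM in libraries 1, 9, 13 and 14 and 164, 246 and 148 in libraries 2, 7 and 8. It did not follow Fabp1 throughout, with 1299 CPM in library 4, where Fabp1 was 84.0 CPM.

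Fabp6, which binds bile acids in ileal enterocytes, was detected mainly in 4 small intestine libraries. Libraries 2, 3, 7 and 8 had 2824, 562, 318 and 22.5 CPM, and the other 11 had 0 to 3.79, for a median of 0.634. In library 2 it made up 74.1% of the family's summed CPM per kilobase. Liver, heart and brain had no count in any library. Small intestine passed against spleen, the next organ (edgeR adjusted p = 5.25e-06), with no fold given since spleen is near 0. Skeletal muscle reached 1.76 CPM (library 12), spleen 1.10 (library 8) and kidney 0.0998 (library 7).

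Pooled over its 15 libraries, small intestine had 243.8 CPM of Fabp6. Taking 3 counts over the group as the floor, that was at least 12700-fold higher than liver, 13500-fold higher than heart and 14600-fold higher than brain. These bounds cover counting error only. They rested largely on library 2, without which they were 3470-fold, 3700-fold and 4000-fold, and without libraries 2, 3 and 7 the pooled level was 2.72 CPM and the bounds were 141-fold, 151-fold and 163-fold.

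The libraries high in Fabp6 were also those highest in Slc10a2, the apical bile acid transporter of ileum. Slc10a2 was 557, 207, 107 and 96.6 CPM in libraries 2, 3, 7 and 8. The other libraries had 0 to 36.2 CPM, with library 10 highest. Slc10a2 is 1 of 5 ileum markers, and their sum did not follow Fabp6, with 3690, 2302, 2280 and 1876 CPM in those 4 libraries against 2955, 2496, 2427 and 2588 in libraries 1, 4, 9 and 14. The bile acid exporter subunit Slc51a, by contrast, was 212 to 1026 CPM in those 4 libraries and also 313 CPM in library 1, where Fabp6 was 0.215 CPM. Slc10a2 was not limited to intestine, with medians of 27.5 CPM in kidney and 20.8 in liver, where Fabp6 had 1 and 0 counts in all.

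Small intestine libraries 10, 11 and 12 were low in Fabp1 (1.14, 7.68 and 0 CPM) and in Fabp2 (277, 113 and 3.17), and highest in Fabp5 (51.8, 37.6 and 46.2, against at most 17.5 elsewhere in this organ). The enterocyte markers were 1050, 753 and 143 CPM in them, against 800 to 40740 in the other 12. The division gene Mki67 was 200, 210 and 252 CPM in these libraries and 3.90 to 167 in the others. The part of cell make-up in these values was not tested.

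**Figure D4:**
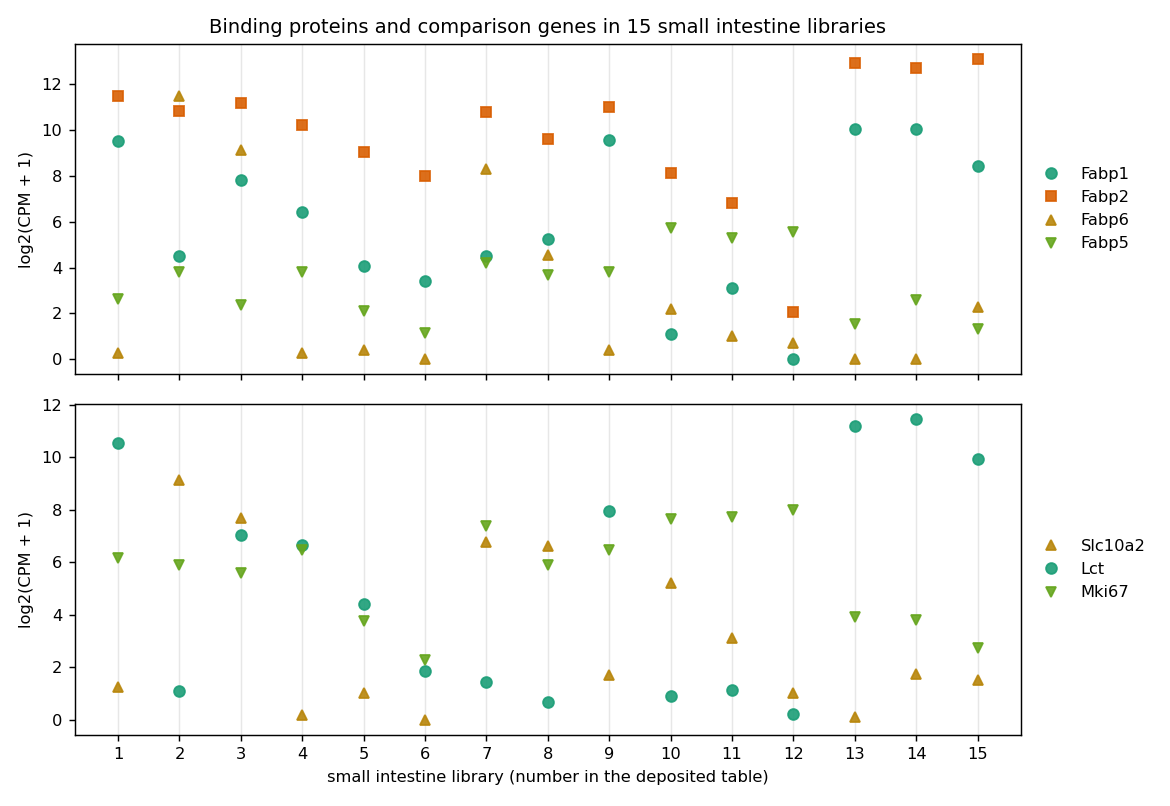
Levels as log2(CPM + 1) on the y axis in 15 small intestine libraries (x axis, library number): the binding proteins in the upper panel, and Slc10a2, Lct and Mki67 in the lower panel. Fabp6 and Slc10a2 peak together in libraries 2, 3, 7 and 8, and both Fabp1 and Lct are low in libraries 2, 7 and 8.

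Fabp3, which carries fatty acids in cardiac and oxidative skeletal muscle, was highest in heart. Heart libraries ranged from 1580 to 3205 CPM with a median of 2242, and skeletal muscle from 97.4 to 597 with a median of 161. No heart library overlapped the skeletal muscle range. The difference was 7.60-fold (log2 2.93 ± 0.405 SE, edgeR adjusted p = 7.16e-10), in a pair where 50.5% of all genes passed. Its spread between the 10th and the 90th percentile was 0.69 on the log2 scale in heart, against 1.67 in skeletal muscle, and 31.9% of the 9712 genes with a median of 5 CPM or more in heart had a smaller one.

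In skeletal muscle, libraries 2 and 3 had 597 and 583 CPM of Fabp3, and library 13 was next at 309. Library 3 also had the highest sum of 6 slow and oxidative fibre markers in this organ, 3289 CPM, but library 2 had 636 CPM, within the range of libraries at 149 to 190 CPM of Fabp3. Kidney (39.4 to 100 CPM, median 62.2) and brain (31.5 to 92.1, median 57.7) lay close together. Skeletal muscle exceeded kidney by log2 2.73 (edgeR adjusted p = 3.66e-09; 62.5% of all genes passed), and by log2 1.77 by library totals. Kidney and brain did not pass, with a difference of log2 0.39 and a 95% interval of -0.34 to 1.13 (68.1% of all genes passed). Every brain library exceeded every small intestine library (at most 2.60 CPM; log2 5.82, and 6.602 by library totals, edgeR adjusted p = 9.68e-20; 73.3% of all genes passed) and every liver library (at most 0.852).

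The low end of the Fabp3 order was less certain. Small intestine (median 0.536 CPM) passed against spleen (0.182) at log2 1.49 with edgeR adjusted p = 0.0234, but by library totals the difference was 0.52 with adjusted p = 0.43, and it was 0.81 with adjusted p = 0.18 without the small intestine libraries over 50% mitochondrial.

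Fabp4, abundant in adipocytes and in the capillary endothelium of muscle, had similar levels in heart and skeletal muscle. Heart ranged from 214 to 1078 CPM with a median of 317, and skeletal muscle from 98.3 to 526 with a median of 268. The 2 organs did not pass the test, with a difference of log2 0.09 and a 95% interval of -0.67 to 0.86. By the authors' normalised values skeletal muscle had the higher median, 5260 against 4633 in heart.

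Heart libraries 13, 14 and 15 had 1078, 1049 and 670 CPM of Fabp4, and the other 11 lay between 214 and 374, so these 3 stood apart. Fabp5 stood apart in the same libraries, at 59.5, 64.6 and 42.8 CPM against 6.87 to 28.9. The fatty acid transporter Cd36 was lower in them, at 689, 727 and 936 CPM against 1229 to 1971. The 6 slow and oxidative fibre markers summed to 6000, 5998 and 10310 CPM in them against 13300 to 29270 in the other 11, and mitochondrially encoded genes took 40.25%, 38.64% and 33.84% of their counts against 29.64 to 34.1%. The part of these differences in Fabp4 was not tested. Adipocyte markers were not higher in these 3. Adipoq was at most 0.74 CPM in those 3 and at most 1.28 in the others, and the 7 adipocyte markers together gave 0.0754 to 5.55 CPM there and 0.362 to 27.3 elsewhere. The 8 capillary endothelium markers were 1254 to 1528 CPM in the 3 libraries and 855 to 1579 in the rest. Fabp3 was 1788 to 2606 CPM in them, inside the range of the other libraries.

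Kidney Fabp4 ran from 24.5 to 474 CPM with a median of 108, a 19.3-fold ratio of highest to lowest library. That ratio was 5.03-fold in heart, 5.35-fold in skeletal muscle, 7.79-fold in liver and 62.5-fold in spleen. Small intestine and brain have no such ratio, since their lowest library was at 0. Libraries 1 and 13 were highest, at 474 and 435 CPM, and also had the highest adipocyte marker sums, 1495 and 779 CPM. Libraries 4, 8 and 9, with at most 0.12 CPM of Adipoq, were the 3 lowest in Fabp4 at 29.2, 50.5 and 24.5 CPM. Library 5 had 0.477 CPM of Adipoq and 81.7 of Fabp4. The 7 adipocyte markers summed to 21.6, 10.5, 4.54 and 9.14 CPM in libraries 4, 5, 8 and 9, and their part in kidney Fabp4 was not tested.

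Skeletal muscle passed against kidney at log2 1.94 (edgeR adjusted p = 1.34e-05), but not by library totals (log2 0.89, adjusted p = 0.0663). Kidney passed against spleen at log2 2.02 (edgeR adjusted p = 0.000668). Spleen (1.38 to 86.0 CPM, median 56.0) and small intestine (0 to 196, median 43.0) did not pass the test, with log2 -0.77 for spleen over small intestine and a 95% interval of -1.75 to 0.21. Small intestine passed against liver (3.74 to 29.1 CPM, median 10.1) at log2 1.77 (edgeR adjusted p = 6.32e-05). By limma on the authors' normalised values it did not (log2 0.90, adjusted p = 0.121). Brain was lowest, with at most 0.626 CPM, and every liver library exceeded every brain library (log2 6.64, edgeR adjusted p = 2.00e-20, and log2 5.92 by library totals).

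**Figure D5:**
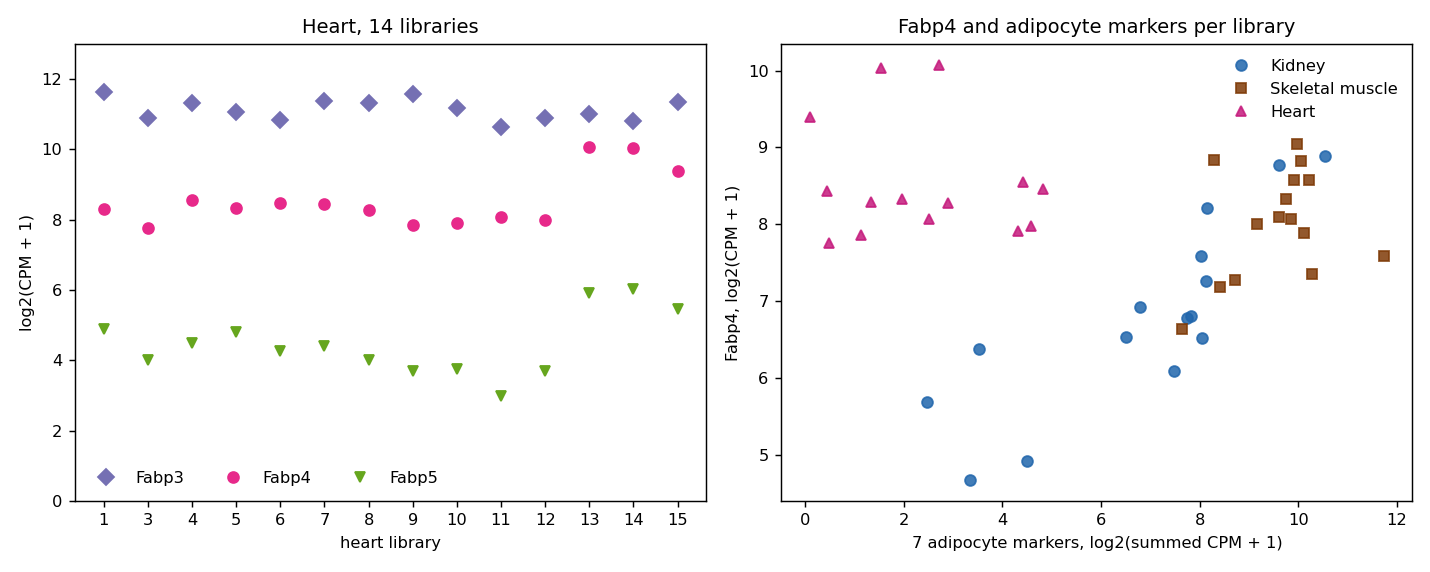
Left, Fabp3, Fabp4 and Fabp5 as log2(CPM + 1) in 14 heart libraries (x axis, library number); right, Fabp4 (y axis) against the summed CPM of 7 adipocyte markers (x axis), both on a log2 scale with 1 added, for kidney, skeletal muscle and heart libraries. Heart libraries 13 to 15 are high in Fabp4 and Fabp5 at low adipocyte markers, and the 3 kidney libraries lowest in Fabp4 (24.5 to 50.5 CPM) are among the 4 with the lowest marker sums.

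Fabp5, known from keratinocytes and also made by macrophages, endothelium and neural cells, was the member found above 1 CPM in all 96 libraries. Liver ranged from 25.0 to 332 CPM with a median of 75.7, brain from 32.7 to 138 with a median of 60.3 and spleen from 35.3 to 78.7 with a median of 51.6. The 3 organs overlapped. Liver passed against brain at log2 1.30 (2.47-fold, edgeR adjusted p = 0.000292; 74.1% of all genes passed), but by library totals the difference was 0.48 with adjusted p = 0.245. Brain against spleen did not pass (log2 0.48, 95% interval -0.32 to 1.28; 66.2% of all genes passed), nor did spleen against heart (log2 0.21, 95% interval -0.58 to 1.00; 61.6% of all genes passed), though the latter passed by library totals at log2 1.20 (adjusted p = 0.0144).

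Heart had a median of 19.1 CPM of Fabp5, small intestine 11.8, skeletal muscle 5.65 and kidney 5.09. Heart passed against small intestine at log2 1.28 (edgeR adjusted p = 0.000464; 66.1% of all genes passed) but not by library totals (0.76, adjusted p = 0.0664). Small intestine against skeletal muscle did not pass (log2 0.35, 95% interval -0.29 to 0.99; 67.6% of all genes passed), although by library totals it did (1.36, adjusted p = 0.000912). Skeletal muscle over kidney was log2 0.74 with edgeR adjusted p = 0.0442, turned to -0.25 by library totals, and missed the threshold under all the other alternatives run. In liver, Fabp5 was lowest in libraries 10, 11 and 12 (28.8, 25.0 and 27.1 CPM), where Fabp1 was also lowest, and highest in library 9 (332 CPM).

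Fabp7, expressed by astrocytes, radial glia and olfactory ensheathing glia, had its highest median in brain, at 14.4 CPM. Brain libraries ran from 3.22 to 38.6 CPM and overlapped those of kidney (1.32 to 10.3, median 3.71). The difference passed at log2 1.78 ± 0.521 SE (3.44-fold, edgeR adjusted p = 0.00198). Brain did not pass against liver, and their ranges overlapped (log2 of liver over brain -0.83, edgeR adjusted p = 0.149; 74.1% of all genes passed). These organs are not neighbours in the Fabp7 order, and no value by library totals is given for them. Mean levels were 17.0 CPM in brain and 5.05 in liver. Over all genes the median log2 of brain over liver was 0.05 with TMM and 0.79 by library totals. Whether the missing call depends on the scaling was not tested. Liver had a median of 3.16 CPM and did not pass against kidney (log2 of kidney over liver -0.95, 95% interval -1.96 to 0.06, and -0.22 by library totals; 52.3% of all genes passed). Liver passed against spleen (median 2.58 CPM) at log2 1.70 (edgeR adjusted p = 0.0274; 60.6% of all genes passed), but not by library totals (0.54, adjusted p = 0.495). Spleen passed against small intestine at log2 2.09 (edgeR adjusted p = 0.00274), and at 2.73 by library totals.

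Libraries 3 and 8 had 38.6 and 38.5 CPM, and libraries 4, 6 and 10 had 3.22, 3.34 and 3.29. The spread was 3.08 on the log2 scale, wider than that of 99.4% of the 11980 genes with a median of 5 CPM or more in brain, against 0.84 for Fabp3 and 1.51 for Fabp5. The 6 astrocyte markers summed to 3596 and 2583 CPM in libraries 3 and 8 and to 3353 to 3590 in libraries 4, 6 and 10. Of the oligodendrocyte markers, Mbp was 3764 and 5817 CPM in libraries 3 and 8 against 2053 to 2669 in the other 3, Mog was 112 and 64.0 against 44.7 to 58.9, and Mag was 266 and 184 against 122 to 165. Cldn11 overlapped, at 190 and 296 CPM against 186 to 251. Of the 5 olfactory ensheathing glia markers, Sox10 (36.4 and 60.9 against 35.0 to 53.3 CPM) overlapped as well. The others are not reported here, so Sox10 does not stand for that list. Library 9 had 5520 CPM of Mbp at 9.27 of Fabp7. These libraries were picked by their Fabp7, and the part of these cell types in it was not tested. Gfap was highest in libraries 1, 2 and 3 (1097, 1279 and 638 CPM), which also led in Fabp5 (97.4, 120 and 138 CPM). The part of the sampled brain region in these values was not tested.

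Against the mean of the other 6 organs on the log scale, members were called as follows, with the share of all genes called in the same direction in brackets. In small intestine 3 members (Fabp1, Fabp2, Fabp6) were higher (32.3%) and 3 lower (30.0%). In liver 4 (Fabp1, Fabp2, Fabp5, Fabp7) were higher (29.9%) and 2 lower (31.0%). In heart 2 (Fabp3, Fabp4) were higher (27.1%) and 3 lower (30.7%), and in skeletal muscle the same 2 symbols were higher (29.4%) and 2 lower (35.0%). In kidney 3 (Fabp3, Fabp4, Fabp7) were higher (27.2%) and 3 lower (27.2%), in brain 3 (Fabp3, Fabp5, Fabp7) were higher (38.5%) and 3 lower (33.6%), and in spleen 0 were higher (29.6%) and 1, Fabp3, lower (26.9%). Such a mean is pulled down by organs where a gene is at or near 0, so Fabp7 was called higher in kidney although it lay below brain, and the pairwise values above are the ones to read.

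The other genes that handle fatty acids were read from a list of 28 uptake, activation and storage genes, 27 of them tested, and those named are the highest by median CPM, not scaled for length. In heart 12 were higher and 12 lower than the mean of the other organs (median log2 -0.13). The highest were Lpl, the lipase that frees fatty acids from lipoproteins, with a median of 5486 CPM, and Cd36, which takes them up, with 1468 CPM. In small intestine 11 were higher and 11 lower (median log2 -0.12), led by Mttp, which loads lipid onto nascent lipoproteins (1048 CPM), and Dgat1, which completes triglyceride synthesis (746 CPM). In liver 15 were higher and 9 lower (median log2 1.17), led by the acyl-CoA synthetases Slc27a2 (777 CPM) and Slc27a5 (431 CPM).

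In kidney 13 were higher and 7 lower (median log2 0.36), led by Slc27a2 at 3050 CPM. In skeletal muscle the counts were 13 and 9 (median 0.21), with Lpl at 256 CPM. Brain had 7 higher and 20 lower (median -1.64), the higher ones including the acyl-CoA synthetases Acsl6 (194 CPM) and Acsl3 (187 CPM). Spleen had 3 higher and 17 lower (median -1.60). Over all genes tested the median log2 difference from the other organs was -0.13 in kidney, -0.31 in skeletal muscle, -0.03 in brain and -0.09 in spleen, and -0.22 in heart, -0.08 in small intestine and -0.11 in liver, with the shares called as given above for each organ.

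Among relatives of the family that bind retinoids or lipids, Pmp2, Fabp9 and Fabp12 had too few counts for the test, with at most 4.24 CPM in any library. Rbp2, the retinol carrier of enterocytes, was higher in small intestine than the mean of the other organs (log2 12.3, edgeR adjusted p = 1.02e-40), with a median of 338 CPM. Rbp7, an endothelial and adipocyte retinol-binding protein, was higher in heart (log2 3.75, edgeR adjusted p = 1.30e-12), with a median of 11.4 CPM. It was also called higher in small intestine (log2 1.54), liver (2.47) and skeletal muscle (2.36), where its medians were 2.88, 0.254 and 2.55 CPM. Rbp2 was also called higher in liver (log2 2.82), at a median of 0.122 CPM. Crabp1 and Crabp2, which carry retinoic acid, were higher in brain (log2 4.46 and 2.60, edgeR adjusted p = 1.24e-19 and 9.60e-06), at medians of 2.11 and 2.05 CPM. Crabp1 was also called higher in small intestine and skeletal muscle (log2 1.33 and 1.23), and Crabp2 in liver (log2 3.25), at medians of 0.155, 0.0823 and 0 CPM there.

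Of 11 transcription factors that bind near these genes or take fatty acids as ligands, all tested, 7 were higher and 0 lower in small intestine, 6 and 1 in liver, 4 and 3 in kidney, 3 and 4 in heart, 3 and 5 in skeletal muscle, 2 and 8 in brain, and 1 and 6 in spleen. Hnf4a, a nuclear receptor of liver, gut and kidney epithelium, had medians of 523 CPM in kidney, 281 in liver and 272 in small intestine. Kidney, with the highest Hnf4a median of the 3, had medians of 0 for Fabp2 and 0.404 CPM for Fabp1. The part of Hnf4a in these levels was not tested. Cdx2, an intestinal factor, had 64.7 CPM in small intestine. In brain Pou3f2 and Pax6, factors of the neural lineage, were higher, at 16.9 and 9.27 CPM. Pou3f2 was also called higher in skeletal muscle (log2 1.56), at a median of 0 CPM, and was the factor called higher in spleen. Of the 4 tested genes of ileal bile acid handling, 3 were higher and 0 lower in small intestine, 3 and 0 in liver, 4 and 0 in kidney, 1 and 1 in heart, 1 and 2 in skeletal muscle, 0 and 3 in brain and 0 and 3 in spleen. For both lists, the shares of all genes called are those given above for each organ.

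Each member was compared with the genes that had a median of 5 CPM or more in its highest organ. Predicted and unnamed genes, mitochondrially encoded genes, Y-linked genes, Xist, Tsix and the other members were left out. Among the genes compared, those that followed the member most closely were taken by Pearson's r of log2(CPM + 1) over that organ's libraries. They describe libraries that share depth, cell make-up and genotype mix. For Fabp2 in small intestine (15 libraries, 9642 genes) these were Apoa1 (r = 0.98), Cst6, Slc13a2, Calml4 and Slc15a1, and r stayed at 0.87 to 0.97 without libraries 12 and 11, the farthest from the median. For Fabp1 in liver they were Inmt (r = 0.95), Rida, Nat8f1, Adh6-ps1 and Nudt7, with r of 0.90 to 0.93 without libraries 12 and 11. Fabp5 in liver had Asgr2 (r = 0.93), Ropn1l, Inmt, Sat2 and Serpina6 nearest, and its r with Fabp1 was 0.77.

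For Fabp7 in brain the nearest genes were Bex3 (r = 0.93), Pafah1b3, AW047730, Romo1 and Gap43, with r of 0.87 to 0.92 without libraries 4 and 10, and r with Fabp5 was 0.74. For Fabp3 in heart (14 libraries) Phb2 came first with r = 0.88. The next, Gpr180, Pdcl, Memo1 and Nudt2, fell to 0.59 to 0.70 without libraries 1 and 11. For Fabp6 in small intestine they were Sprr2a3, Slc1a1, Sprr2a2, Duox2 and Slc44a4, and without libraries 2 and 3 their r fell to 0.55 to 0.69. Fabp6 itself had a median of 0.634 CPM there, so genes with a low median like its own were not compared. Slc10a2, with a median of 2.24 CPM, was 1 of these. Since heart libraries 13 to 15 stood apart in Fabp4, r is given over the other 11 only: the genes nearest over all 14, Ilk, Gsdmd, Hmg20b, Tkt and Hspa12b, had r of 0.84, 0.72, 0.59, 0.48 and 0.64 there, and Fabp5 had 0.60.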

How the data were processed

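Total RNA from 7 organs was sequenced in 96 libraries. The tables used had 1 column per library: estimated counts per gene, deposited by the authors without scaling (26.8% of values above 0 were not whole, within 1e-06), and a normalised signal per gene, deposited by the authors and scaled by more than 1 factor per library. Per the submitters' processing notes, GRCm39 and DESeq2 were used; the sources used here name no aligner or counter. Columns were assigned to organs by their names; 0 value columns were left out. Estimated counts were rounded and tested with edgeR 4.0.16 (filterByExpr, TMM, quasi-likelihood, all 96 libraries in 1 fit, organ as the only factor), all 21 pairs of organs and each organ against the mean of the others, with Benjamini-Hochberg adjustment and a threshold of 0.05. Intervals are normal 95% intervals from the fit. Alternatives were DESeq2 1.42.0, limma 3.58.1 on log2(normalised value + 1), other scalings, filters and left-out libraries.

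Tested on simulated data (15 against 15 kidney-like libraries, 15045 genes), the edgeR step recovered 86% of 100 genes changed by log2 1 and 100% of 100 changed by log2 3. The simulation gave every gene the same relative spread between libraries and changed well-expressed genes only. These shares therefore do not carry over to members that vary more or lie near 0. Of 637 pairs of libraries within an organ, 0 were identical, and every pair differed beyond sampling noise (lowest mean chi-square per gene 6.24). Up to 0.113% of a library's counts lay on the 310 rows without a gene name. Coding sequences were aligned with mafft. Named genes were the members, the listed relatives and pathway genes (per list and organ at most the 6 with the highest median that passed), and the 5 genes nearest each member by Pearson's r. The members, lists and markers were chosen with earlier results of these data known. Some items of the lists are not reported here.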

Additional observations from a re-analysis of the deposited data

Results flagged for a closer look

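In the 7 spleen libraries, 3 members had a highest library that lay far from the rest by Dixon's test on CPM. Its rate of about 1 in 20 groups holds for normally distributed values and not for levels near 0. There a few counts are enough for a flag, and Fabp6 was 0 in 5 of the 7 libraries. Fabp1 was 61.01 CPM in library 2 against at most 1.84 in the others, in the library with 4659 CPM of hepatocyte markers. Fabp3 was 1.78 CPM in library 9 against at most 0.323. Fabp6 was 1.10 CPM in library 8 against at most 0.108, a library in which Fabp4 was 1.38 CPM and Adipoq was 0.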

How the results depend on the processing

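No paired analysis was possible because nothing ties the columns' running numbers to a mouse or to the replicate numbers of the labels. Of 206 alternative values for neighbouring organs, 186 kept direction and side of the threshold, 16 lost the call, 2 gained it and 2 reversed. The reversals were Fabp1 in spleen over kidney (log2 -0.93 without small intestine library 4, spleen library 2 and skeletal muscle library 12, left out after seeing the data) and Fabp5 in skeletal muscle over kidney (-0.25 by library totals). Fabp5 in liver over brain fell to 0.48, short of the threshold, by library totals, which moved the median difference of all genes between 2 organs by up to 1.39 (log2) from TMM. Without mitochondrially encoded genes the heart median of Fabp3 was 3414 CPM. TMM moved the Fabp3 median to 357 CPM in skeletal muscle and 39.9 in brain, and that of Fabp5 in spleen to 29.2. Genes called per organ stayed within 1.5 times under all 55 alternatives, and member counts moved further in 6 of 110. By Spearman's rho 0 to 3 of each member's 5 nearest genes were the same. Levels under 0.453 CPM lie at or below 3 counts in the shallowest library.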
